A study of Mus musculus with 6 samples.

Results

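The genes described here are 10 transcripts of the alveolar type 2 cell, the epithelial cell that makes pulmonary surfactant: Sftpc, Sftpb, Sftpa1, Sftpd, Abca3, Lamp3, Lpcat1, Napsa, Slc34a2 and Etv5. They were chosen by name as surfactant and type 2 cell genes, by a rule that uses no measured value but was set with earlier results of these data known. Each of the 10 matched 1 of the 35275 Ensembl gene rows of the count tables, and all 10 passed the filter on low counts. RNA came from whole lungs of Balb/c mice taken 7 days after 250000 cells of 4T1, a Balb/c mammary carcinoma line that colonises the lung, were given into the tail vein. In the KO group (3 libraries) the injected cells were 4T1 lacking PD-L1, and in the WT group (3 libraries) they were unmodified 4T1. The lungs of both groups were flushed with 20 mL of PBS. The mice themselves are not labelled as edited and no lung without tumour cells is among the samples, so KO and WT refer to the injected cells only. The labels do not say whether the KO cells were 1 clone or a pool, or whether a library held the lungs of 1 mouse.

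Surfactant is a film of phospholipid and protein that lowers surface tension in the air space. Type 2 cells assemble it in lamellar bodies, which are organelles related to lysosomes, and secrete it. The hydrophobic proteins SP-B and SP-C are cut from larger precursors and spread the lipid, while the collectins SP-A and SP-D bind microbes and take part in surfactant turnover. The cells also act as progenitors of the flat alveolar type 1 cells that cover most of the gas-exchange surface.

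None of the 10 genes passed the test between KO and WT lungs, with p-values adjusted over all genes tested. Sftpc RNA averaged 7783 ± 1063 CPM (read counts scaled to the size of each library) in KO lungs and 7846 ± 481 CPM in WT lungs (SD, n = 3 each), and Sftpa1 averaged 2073 ± 121 CPM in KO lungs and 2062 ± 126 CPM in WT lungs. The log2 differences, KO minus WT, ran from -0.29 for Abca3 to 0.26 for Napsa, with a median of -0.10, where the median over all 15191 genes tested was 0.0072. No gene of the 10 was called at an adjusted p of 0.05 (edgeR quasi-likelihood test, lowest adjusted p = 0.236), beside 1.45% of all genes. At an unadjusted p under 0.05 there were 2 of the 10, Abca3 and Napsa, beside 14.6% of all genes, and their differences had opposite signs. The 95% intervals of the 10 differences, each taken singly, lay between -0.53 and 0.48 on the log2 scale, so none reached a fall of more than 1.44-fold or a rise of more than 1.39-fold. In RNA of a whole organ, fewer type 2 cells and less of these RNAs per cell cannot be told apart.

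The libraries held 14711459 to 16932114 counts, and the 10 genes had 867 to 139979 counts in a library, and the counting error was below the spread between lungs of a group except for Napsa in WT lungs (counting error 2.22%, coefficient of variation 0.9%). KO replicate 1 stood apart in the number of genes with a count, with 19156 against 17520 and 17841 in the other KO libraries and 17674 to 18319 in WT libraries. Cd274, which encodes PD-L1 and which host cells keep, had 97.4, 197 and 301 CPM in KO lungs and 62.6, 53.6 and 74.3 CPM in WT lungs, and the difference did not pass (edgeR adjusted p = 0.161). Genes higher in KO numbered 170 and genes lower in KO 51. The RNA held abundant type 2 cell transcripts: by mean CPM over the 6 libraries Sftpc ranked first of all tested genes, and Sftpa1 and Sftpb ranked 22 and 39.

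Levels were compared between genes as CPM per kilobase of exon (the union of annotated exons), averaged over the 6 libraries. Sftpc stood at 7558 CPM per kilobase, ranging from 6897 to 8713, and was 9.41 times the next gene. Sftpb (803) and Sftpa1 (723) followed, and their ranges over libraries overlapped. Sftpd came next at 195 CPM per kilobase, below the lowest library of Sftpa1. Slc34a2 (116) and Lamp3 (111) overlapped each other, as did Lpcat1 (55.6) and Napsa (53.5). Abca3 (32.8) and Etv5 (18.6) were lowest and overlapped no neighbour. With the longest transcript as the length, Napsa (91.2) stood above Lpcat1 (70.1), and the order was otherwise kept.

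Sftpc, which encodes the precursor of SP-C and is the most specific of the type 2 transcripts, lies on chromosome 14 (70520949 to 70524081, GRCm38, minus strand). It had 9009.7, 7209 and 7132 CPM in KO replicates 1 to 3 and 8059, 8184 and 7295 CPM in WT replicates 1 to 3. KO replicate 1 was the highest of all 6 lungs, the other KO libraries were the lowest, and the groups overlapped. The log2 difference was -0.012 ± 0.12 (SE), with an interval from -0.28 to 0.25 (edgeR adjusted p = 0.978). Sftpb, on chromosome 6 (72304610 to 72314371), encodes SP-B, without which lamellar bodies do not form properly. Its levels were 1777, 1465 and 1313 CPM in KO lungs and 1625, 1760 and 1545 CPM in WT lungs. KO replicate 1 was again the highest and KO replicate 3 the lowest, and the log2 difference was -0.11 ± 0.12 (interval -0.38 to 0.15).

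Sftpa1 (chromosome 14, 41131782 to 41136452) encodes the collectin SP-A. It had 2200.6, 1959 and 2059 CPM in KO lungs and 2081, 2177 and 1928 CPM in WT lungs. It varied least of the 10 genes over the 6 libraries, with the highest 1.14 times the lowest, and the log2 difference was 0.0074 ± 0.11, whose sign turned under another scaling (-0.0022 with RLE factors). Sftpd (chromosome 14, 41172214 to 41185149, minus strand) encodes SP-D, the other surfactant collectin. Its levels were 461, 489 and 576 CPM in KO lungs and 465, 415 and 414 CPM in WT lungs. KO replicates 2 and 3 lay above every WT library and KO replicate 1 just under WT replicate 1. Its log2 difference was 0.24 ± 0.11, short of the threshold (edgeR adjusted p = 0.35), with an interval that ran from -0.0041 to 0.48.

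**Figure D1:**
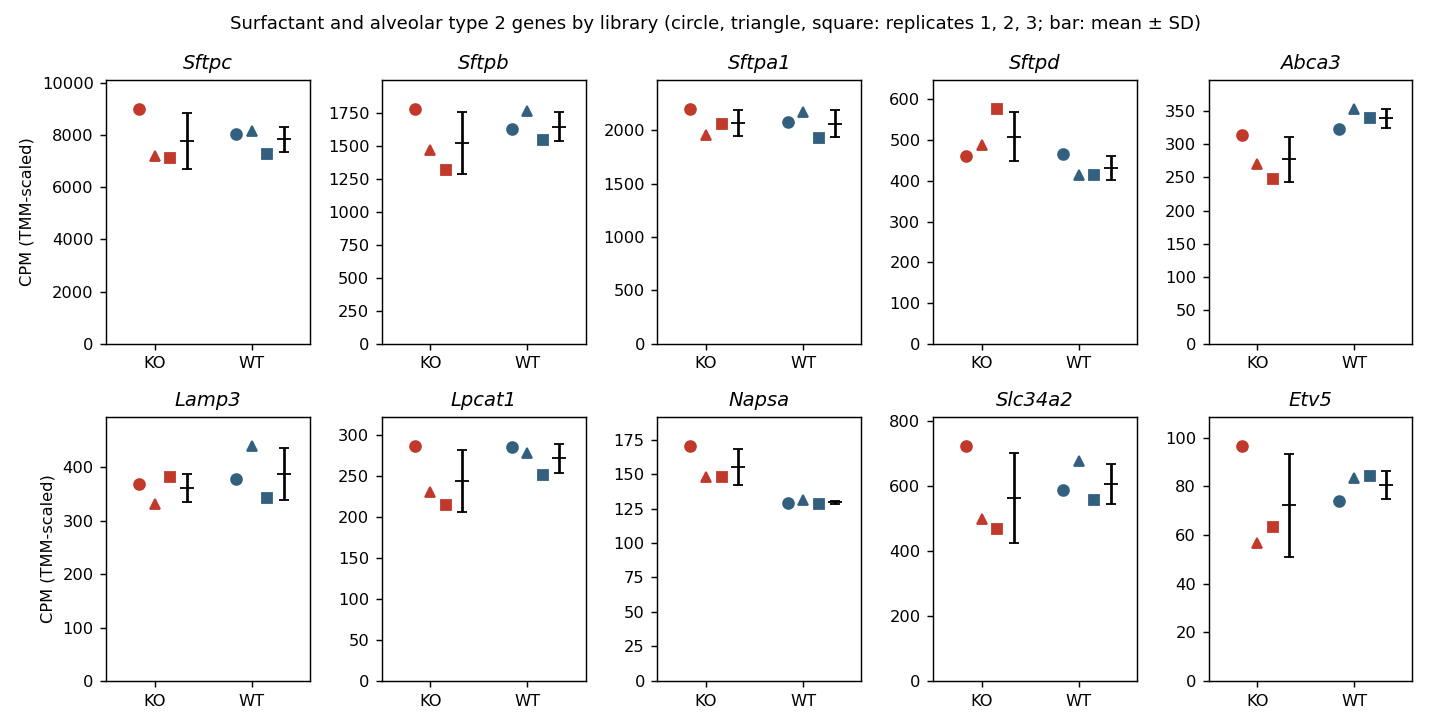
CPM (TMM-scaled, y axis from 0, a scale for each gene) of the 10 genes in the 3 KO and 3 WT libraries, with symbols for replicates 1 to 3 and the mean ± SD beside them. KO and WT points overlap in 8 panels, KO lies below WT for Abca3 (247 to 314 against 323 to 353 CPM) and above WT for Napsa (147.56 to 170.05 against 128.58 to 130.83 CPM). Of all genes tested, 9.4% lie below WT and 10.3% above WT without overlap.

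Abca3, Lamp3 and Lpcat1 belong to the lamellar body and its lipid. Abca3 (chromosome 17, 24351950 to 24410201) pumps phospholipid into the lamellar body. It had 314, 270.4 and 247 CPM in KO lungs and 323, 353 and 339.7 CPM in WT lungs. Every KO library was under every WT library, the closest pair being KO replicate 1 and WT replicate 1. The log2 difference was -0.29 ± 0.11 (interval -0.53 to -0.052), and it did not pass over all genes (edgeR adjusted p = 0.236). Of the exonic bases of Abca3, 9.75% are shared with the antisense gene D330041H03Rik, which had 46 to 85 counts in a library, and the strand setting of the counting is not given.

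Lamp3 (chromosome 16, 19653378 to 19706375, minus strand) encodes DC-LAMP, a membrane protein of lamellar bodies that mature human dendritic cells also make. Its levels were 369.5, 331 and 381 CPM in KO lungs and 379, 439 and 342 CPM in WT lungs, with a log2 difference of -0.10 ± 0.12. KO replicate 2 was the lowest lung and WT replicate 2 the highest, and the other libraries overlapped. Lpcat1 (chromosome 13, 73467197 to 73516422) encodes an acyltransferase that makes the saturated phosphatidylcholine of surfactant. It had 286, 231 and 214 CPM in KO lungs and 285, 278 and 251 CPM in WT lungs. KO replicate 1 was close to the highest WT library while the other KO libraries lay below all WT libraries, and the log2 difference was -0.16 ± 0.12 (edgeR adjusted p = 0.601).

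Napsa (chromosome 7, 44572380 to 44586862) encodes napsin A, an aspartic protease that cuts the SP-B precursor. It had 170.05, 147.56 and 147.85 CPM in KO lungs and 129.17, 130.83 and 128.58 CPM in WT lungs. Every KO library exceeded every WT library, and the WT libraries were close to each other (SD 12.9 CPM in KO lungs, 1.17 CPM in WT lungs). The log2 difference was 0.26 ± 0.10 (interval 0.041 to 0.48), which did not pass over all genes (edgeR adjusted p = 0.247). Of the 2660 exonic bases of Napsa, 502 are shared with the antisense gene Gm15396, which matched no row of the count tables. Abca3 and Napsa were thus 2 genes of 10 without overlap between the groups, near the 19.7% of all genes. Taken by direction, 1 of the 10 lay below WT, where 9.4% of all genes did, and 1 lay above WT, where 10.3% did.

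Slc34a2 (chromosome 5, 53038081 to 53071664) encodes the sodium-phosphate cotransporter NaPi-IIb, which takes phosphate released from surfactant out of the air space. Its levels were 721, 499 and 467 CPM in KO lungs and 586, 675 and 555 CPM in WT lungs, so that KO replicate 1 was the highest lung and the other KO libraries the lowest. The log2 difference was -0.11 ± 0.15 (interval -0.43 to 0.22). Etv5 (chromosome 16, 22381309 to 22439719, minus strand) encodes an ETS transcription factor that acts below FGF signalling and maintains type 2 cell identity in mice. It had 96.4, 56.8 and 63.3 CPM in KO lungs and 74.0, 83.3 and 84.3 CPM in WT lungs. The KO libraries lay on both sides of the WT libraries, and Etv5 had the widest interval of the 10, from -0.52 to 0.20 around a log2 difference of -0.16.

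**Figure D2:**
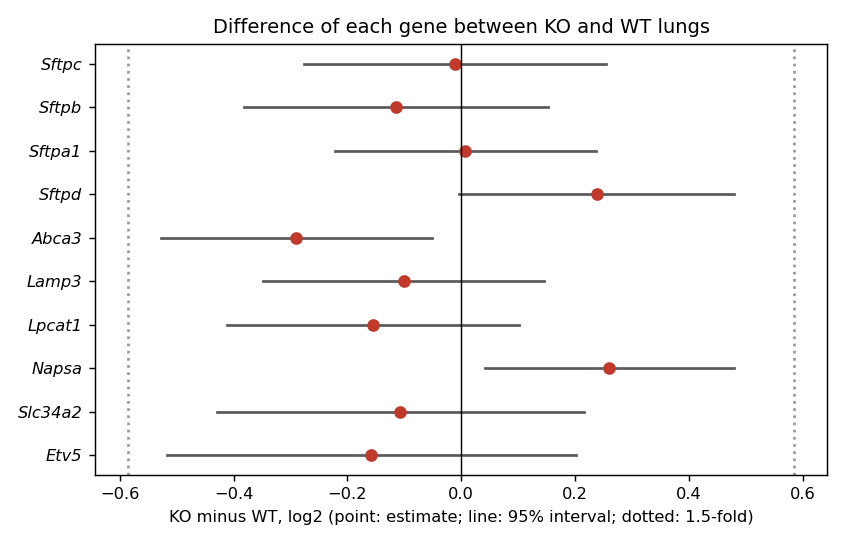
KO minus WT difference of each gene on the log2 scale (x axis), with the point as the edgeR estimate, the line as its 95% interval and dotted lines at 1.5-fold in either direction. No interval reaches a dotted line, and those of Abca3 and Napsa do not include 0.

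The 10 genes did not vary as 1 block over the 6 lungs. The mean of their centred log2(CPM + 1) values was 0.16, -0.13 and -0.11 in KO replicates 1 to 3 and 0.023, 0.096 and -0.042 in WT replicates 1 to 3. KO replicate 1 was therefore the highest lung and the other KO libraries the lowest. Sftpc, Sftpb, Slc34a2, Lpcat1, Sftpa1 and Etv5 followed this order most closely, with Pearson r from 0.80 to 0.97 between each gene and the mean of the other 9, given as a description over 6 libraries. The closest pair was Sftpb and Slc34a2 (r = 0.97). Abca3 (0.57) and Lamp3 (0.45) followed it less, Napsa hardly (0.074), and Sftpd ran against it (-0.63). Sftpd and Abca3 had the most opposed values of the 45 pairs (r = -0.95): Sftpd was highest and Abca3 lowest in KO replicate 3.

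**Figure D3:**
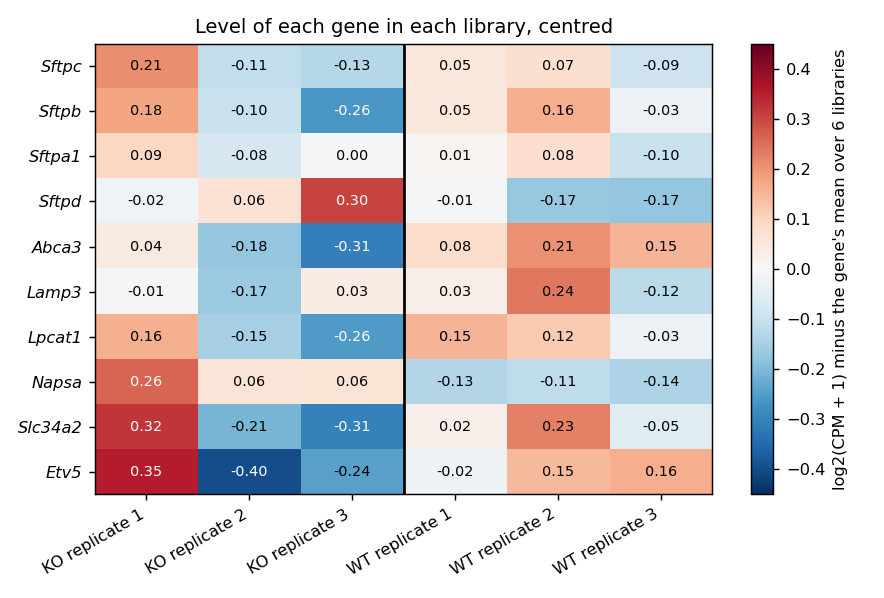
Colour and number give log2(CPM + 1) minus each gene's mean over the 6 libraries, with genes as rows, the 3 KO libraries as the left columns and the 3 WT libraries as the right columns. KO replicate 1 is high for Etv5 (0.35) and Slc34a2 (0.32), while KO replicate 3 is high for Sftpd (0.30) and low for Abca3 (-0.31).

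The spread was wider over KO than over WT lungs for 8 of the 10 genes, all but Lamp3 and Sftpa1. The share of all genes with a wider spread over KO lungs was not taken, so this cannot be called particular to these genes. The coefficient of variation over KO lungs was 29.4% for Etv5, 24.7% for Slc34a2 and 13.7% for Sftpc, against 7.01%, 10.3% and 6.13% over WT lungs, with KO replicate 1 the highest KO library for each of these 3. For Lamp3 it was 7.24% over KO lungs and 12.6% over WT lungs, and for Sftpd, whose highest lung was KO replicate 3, 11.8% over KO lungs and 6.77% over WT lungs. Without KO replicate 1, the log2 difference was -0.42 for Etv5, -0.39 for Abca3, -0.33 for Slc34a2, -0.29 for Lpcat1 and -0.24 for Sftpb, and 0.30 for Sftpd. None of the 10 genes passed there either (edgeR, lowest adjusted p = 0.0596, for Abca3), where 3.69% of all genes did. These 6 had an unadjusted p under 0.05, beside 17.3% of all genes. KO replicate 1 was the highest lung for Etv5, Slc34a2, Lpcat1 and Sftpb, so leaving it out lowered their KO means. With any other library left out, only 1 or 2 of the 10 genes had an unadjusted p under 0.05. KO replicate 1 was also the KO lung with the lowest summed level of 12 interferon-induced genes, at 1098 CPM against 1437 and 1689 CPM in KO replicates 2 and 3, and of 8 pan-leukocyte genes, at 1576 CPM against 1979 and 1910 CPM. Mitochondrially encoded genes took 1.66% of its counts, against 1.90% and 2.05% in the other KO libraries and 1.62% to 1.96% in WT libraries. The part of these measures in the levels of the surfactant genes was not tested.

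Together the 10 genes took 1.55%, 1.27% and 1.25% of all counts in KO lungs and 1.38%, 1.46% and 1.28% in WT lungs, with exact 95% binomial intervals no wider than 1.547% to 1.559%, which cover counting error only. More than any other gene of the 10, Sftpc set this sum, with 57.3% ± 0.998 of it in KO lungs and 56.9% ± 0.581 in WT lungs (SD, n = 3 each). Within the sum, Sftpd made up 2.99%, 3.86% and 4.57% in KO lungs and 3.32%, 2.86% and 3.21% in WT lungs, so that the groups overlapped. Abca3 made up 2.04%, 2.14% and 1.96% in KO lungs and 2.31%, 2.43% and 2.64% in WT lungs, without overlap. Napsa made up 1.10%, 1.17% and 1.17% in KO lungs and 0.922%, 0.903% and 0.998% in WT lungs, also without overlap. Sftpb (10.4% to 11.577% in KO lungs and 11.604% to 12.1% in WT lungs) and Lpcat1 (1.70% to 1.86% in KO lungs and 1.92% to 2.03% in WT lungs) did not overlap either, so that 4 of the 10 shares were apart. These shares sum to a fixed total and have no counterpart over all genes.

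Promoter windows from 250 bases before to 50 bases after the start of the gene were at hand from RefSeq (GRCm38.p6) for 7 of the 10 genes, as 8 windows. They are shown for Sftpb and Slc34a2, the pair with the most alike levels over the lungs, for Sftpa1 and Lamp3, and for Abca3, the gene with the smallest p. The RefSeq start used for Slc34a2 lies inside the gene span given above. Capitals mark CTCAAG, a motif of the type bound by NKX2-1, and TGTTTAC, of the type bound by forkhead factors, both of which act in type 2 cells.
Sftpb (chr6:72304360-72304659, plus strand): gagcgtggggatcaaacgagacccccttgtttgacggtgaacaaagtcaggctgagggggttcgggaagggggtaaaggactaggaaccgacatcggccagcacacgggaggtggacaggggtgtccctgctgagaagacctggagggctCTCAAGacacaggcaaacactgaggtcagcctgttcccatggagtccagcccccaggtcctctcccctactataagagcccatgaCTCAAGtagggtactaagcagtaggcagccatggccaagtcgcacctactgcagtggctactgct
Slc34a2 (chr5:53049103-53049402, plus strand): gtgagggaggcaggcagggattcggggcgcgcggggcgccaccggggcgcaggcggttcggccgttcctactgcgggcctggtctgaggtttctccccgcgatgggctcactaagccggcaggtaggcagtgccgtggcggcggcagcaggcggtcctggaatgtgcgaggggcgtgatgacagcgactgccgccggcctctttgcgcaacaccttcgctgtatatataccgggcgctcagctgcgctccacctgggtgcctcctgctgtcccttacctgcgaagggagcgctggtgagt
Sftpa1 (chr14:41131538-41131837, plus strand): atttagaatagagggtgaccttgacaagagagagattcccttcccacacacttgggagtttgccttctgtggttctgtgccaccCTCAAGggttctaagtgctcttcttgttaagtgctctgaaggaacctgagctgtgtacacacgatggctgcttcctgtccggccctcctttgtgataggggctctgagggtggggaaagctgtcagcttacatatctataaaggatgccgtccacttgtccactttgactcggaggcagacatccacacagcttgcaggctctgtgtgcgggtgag
Lamp3 (chr16:19706316-19706615, minus strand): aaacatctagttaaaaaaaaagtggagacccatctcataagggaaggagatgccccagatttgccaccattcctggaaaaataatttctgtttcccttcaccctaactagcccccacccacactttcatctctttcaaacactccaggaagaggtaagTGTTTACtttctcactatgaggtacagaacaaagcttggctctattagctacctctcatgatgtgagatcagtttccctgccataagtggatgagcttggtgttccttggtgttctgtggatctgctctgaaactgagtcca
Abca3 (chr17:24351773-24352072, plus strand): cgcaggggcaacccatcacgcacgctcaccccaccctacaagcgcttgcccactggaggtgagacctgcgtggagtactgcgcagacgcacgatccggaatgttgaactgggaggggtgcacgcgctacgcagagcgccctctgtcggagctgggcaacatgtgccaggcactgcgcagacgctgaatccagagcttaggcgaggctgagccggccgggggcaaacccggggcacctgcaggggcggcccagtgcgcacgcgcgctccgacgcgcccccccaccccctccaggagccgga
Each motif was searched on both strands, and none of the matches overlapped. CTCAAG occurred in 2 of the 8 windows, at 100 and 15 bases before the Sftpb start and 166 bases before the Sftpa1 start, beside 15.9% of 32851 windows of the same length. TGTTTAC occurred in 2 of the 8 windows, at 92 bases before the Lamp3 start and, on the other strand, 183 bases before an Etv5 start, beside 3.65% of all windows. The ETS-type motif CCGGAAG was in none of the 8 and in 8.86% of all windows. The windows of Slc34a2 and Abca3 were rich in G and C (68.7% and 69.7%), and those of Sftpb, Sftpa1 and Lamp3 less so (58.3%, 52.0% and 43.7%). The Slc34a2 window held none of these motifs, so it could share none with the Sftpb window. A match or its absence is a description of these letters only.

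Other genes of the type 2 cell were examined in lists, and none of 19 further type 2 markers was called (median log2 difference 0.010). Lgi3, which lies next to Sftpc, had 140.1, 105 and 86.0 CPM in KO lungs and 136, 166 and 137 CPM in WT lungs (log2 difference -0.41 ± 0.15, edgeR adjusted p = 0.232). Without KO replicate 1 its difference was -0.62 and it was called (edgeR adjusted p = 0.0195), and the median of the list was -0.12. Ctsh, a cathepsin that takes part in processing the SP-B and SP-C precursors, had 166, 164 and 175 CPM in KO lungs and 156, 132 and 139.9 CPM in WT lungs (0.24 ± 0.10, edgeR adjusted p = 0.295). Of the 19 markers, 3 had all KO libraries above all WT libraries, namely Ctsh, Chil1 and Fabp5, where 10.3% of all genes did. In the other direction there were 0 of the 19, where 9.4% of all genes lay below WT. Of 25 genes of phospholipid synthesis none was called (median 0.014). The choline pathway enzyme gene Pcyt1a, which sets the rate of phosphatidylcholine synthesis, had 112, 110.4 and 109 CPM in KO lungs and 130.1, 138 and 129.9 CPM in WT lungs (-0.26 ± 0.10, edgeR adjusted p = 0.219), and Srebf1, a regulator of lipid synthesis, averaged 92.9 ± 3.41 CPM in KO lungs and 109 ± 4.04 CPM in WT lungs (-0.23 ± 0.10).

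Of 19 tested genes of lamellar bodies and lysosome-related organelles none was called (median 0.071), and Bloc1s1 had too few counts to be tested. Hps6, a subunit of a complex that builds such organelles, averaged 11.1 ± 0.881 CPM in KO lungs and 6.81 ± 0.608 CPM in WT lungs (0.70 ± 0.24, edgeR adjusted p = 0.173), and Npc2, which carries cholesterol out of lysosomes, averaged 535 ± 18.7 CPM in KO lungs and 455 ± 15.9 CPM in WT lungs (0.23 ± 0.10). Of 20 regulators of type 2 cells and FGF feedback genes none was called (median -0.13). Gata6, a transcription factor of lung epithelium, averaged 31.1 ± 3.59 CPM in KO lungs and 40.8 ± 1.20 CPM in WT lungs (-0.39 ± 0.14, edgeR adjusted p = 0.205), and Nfib averaged 239 ± 22.3 CPM in KO lungs and 287 ± 18.2 CPM in WT lungs (-0.27 ± 0.11).

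The list of surfactant processing and clearance was the one list close to surfactant in which genes were called. Of its 15 genes 3 rose, namely Ctsc, Msr1 and Spi1 (median 0.34), where 1.12% of all genes did. Ctsc, a lysosomal protease, had 279, 358 and 409.5 CPM in KO lungs and 212, 217 and 240.4 CPM in WT lungs (edgeR adjusted p = 0.0321). Msr1 encodes a macrophage scavenger receptor and Spi1 a transcription factor of myeloid cells, and they rose by 1.12 ± 0.24 and 0.66 ± 0.15 on the log2 scale. All 3 are genes that leukocytes express. The count was 4 without KO replicate 1, 5 without WT replicate 3 and 0 without each of the other libraries.

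The members are set beside other cell types of the lung in the plot of lists. Of 16 alveolar type 1 markers none was called, with a median of -0.25 and 14 negative differences. Over all 15191 genes tested, 7451 differences were negative. With 1 library left out, the median of the type 1 markers ran from -0.16 (without WT replicate 2) to -0.34 (without WT replicate 3). Cldn18, a tight junction gene of alveolar epithelium, averaged 509 ± 52.8 CPM in KO lungs and 661 ± 81.7 CPM in WT lungs (-0.38 ± 0.12, edgeR adjusted p = 0.153), and Sema3e 116 ± 14.6 CPM in KO lungs and 150.5 ± 30.2 CPM in WT lungs. Their r with the mean of the 10 genes had a median of 0.72 over the list, near the 0.74 of the further type 2 markers, where that of all genes was 0.0077. Of 11 genes of transitional alveolar epithelium none was called (median 0.12). Among them Lgals3 averaged 201 ± 40.1 CPM in KO lungs and 135 ± 16.8 CPM in WT lungs (0.58 ± 0.14, edgeR adjusted p = 0.0651), and Krt8 171 ± 15.5 CPM in KO lungs and 145 ± 11.8 CPM in WT lungs. Without KO replicate 1, Lgals3 (0.72) and the type 1 marker Lmo7 (-0.49), named here after its values were seen, were called (edgeR adjusted p = 0.00367 and 0.034). Lgals3 is also expressed by macrophages and Krt8 by carcinoma cells. None of 10 pan-epithelial genes was called (median 0.050), of which Cldn7 averaged 18.9 ± 3.54 CPM in KO lungs and 22.7 ± 4.11 CPM in WT lungs, and none of 8 ciliated cell markers (median -0.12), of which Foxj1 and Dynlrb2 had log2 differences of 0.37 ± 0.34 and -0.37 ± 0.36.

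**Figure D4:**
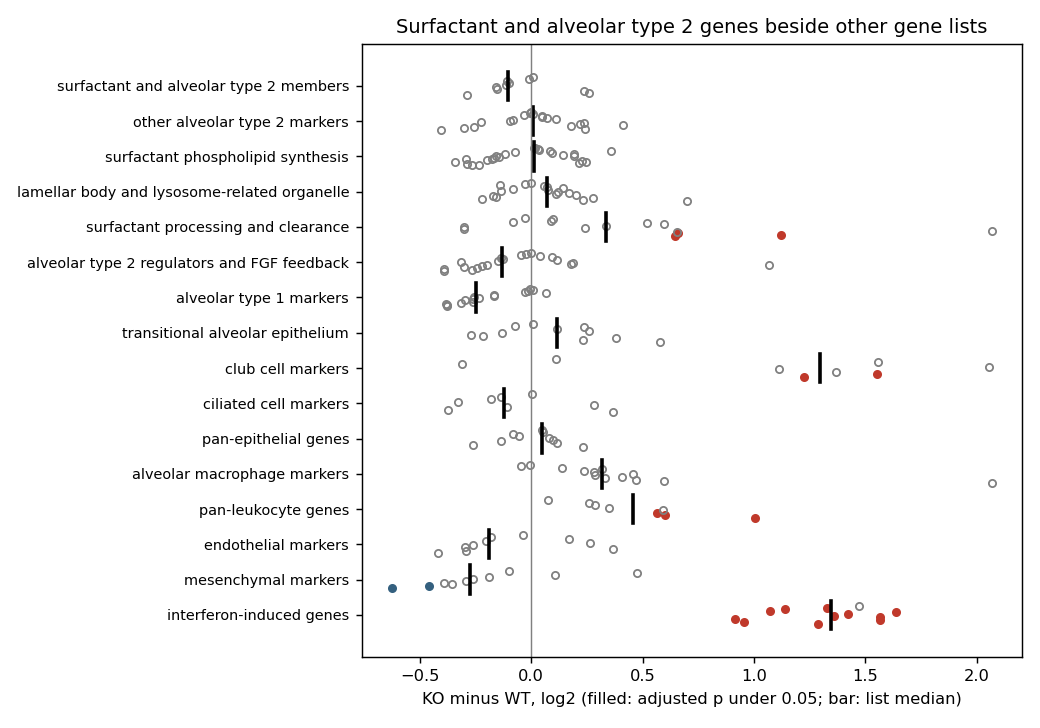
KO minus WT log2 difference (x axis) of each tested gene of each list (rows), with filled points for genes at an adjusted p under 0.05 (red higher, blue lower in KO) and a bar at the list median. The surfactant and alveolar type 2 genes hold no filled point and have a median of -0.10, beside medians of 1.34 for interferon-induced genes and 1.30 for club cell markers.

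Called genes were also found in lists of other cell types and states. Of all 15191 genes tested, 1.12% were called higher and 0.336% lower in KO, and 7740 differences were positive and 7451 negative. Of 8 club cell markers 2 rose, Cyp2f2 (1.22 ± 0.24) and Gabrp (1.55 ± 0.35), with a median of 1.30 and 7 positive differences and 1 negative. The count of club cell markers that rose was 5 without KO replicate 1, 3 without WT replicate 3 and 0 without each of the other libraries. Of 8 pan-leukocyte genes Cd52, Coro1a and Cd53 rose (median 0.46), with 1 left without KO replicate 3, 2 without WT replicate 3 and 0 without KO replicate 2 or WT replicate 1 or 2. Summed pan-leukocyte levels were 1576 to 1979 CPM in KO lungs and 1209 to 1527 CPM in WT lungs, and their part in the values of the surfactant genes was not tested. Of 12 interferon-induced genes 11 rose (median 1.34), led by Bst2, Stat2, Ifi44, Irf1 and Ifit1, with counts of 12, 3 and 7 without KO replicates 1, 2 and 3 and of 4, 5 and 9 without WT replicates 1, 2 and 3. Of 10 mesenchymal markers Pdgfrb (-0.63 ± 0.13) and Pdgfra (-0.46 ± 0.11) fell (median -0.28, 8 negative and 2 positive differences). The count of mesenchymal markers that fell was 3 without KO replicate 1, 1 without WT replicate 3 and 0 without each of the other libraries. None of 13 tested alveolar macrophage markers was called (median 0.32), where Marco averaged 8.31 ± 0.140 CPM in KO lungs and 1.99 ± 1.69 CPM in WT lungs and Ctsk 45.2 ± 18.2 CPM in KO lungs and 29.9 ± 9.13 CPM in WT lungs, nor any of 10 endothelial markers (median -0.19), with 7 negative and 3 positive differences, Emcn at -0.42 ± 0.13 and Tie1 at -0.29 ± 0.12. Marco was called without WT replicate 3 (edgeR adjusted p = 0.0293) and the endothelial gene Tek, chosen here after its values were seen, without KO replicate 1 (edgeR adjusted p = 0.0209).

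Among the 6 other genes whose log2(CPM + 1) followed the mean of the 10 most closely over the 6 libraries, of 8704 with a mean log2 CPM of at least 4, were Bicra (r = 0.99), Dll4 (0.99), Fam193b (0.98), Syt15 (0.98) and Vegfa (0.98). Vegfa, a growth factor for endothelium that alveolar epithelium makes, had 953, 691 and 652 CPM in KO lungs and 835, 901 and 759.5 CPM in WT lungs. Dll4, a Notch ligand of endothelium, had 204, 141 and 138 CPM in KO lungs and 177, 185 and 155 CPM in WT lungs. None of these 5 passed the test between KO and WT lungs (edgeR adjusted p = 0.752 to 0.951). The 6 genes were picked for the highest r among 8704 over only 6 libraries, so their r is a description and was not tested.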

How the data were processed

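Whole-lung RNA of 6 libraries was used, 3 KO and 3 WT, grouped by their titles. The deposited values are raw read counts per Ensembl gene. Per the labels' protocols, the authors mapped read pairs to mm10 with STAR 2.5 and obtained counts with HTSeq 0.6.1. Annotation release, strandedness and counting mode are not stated there. Of the 35275 rows 0 named no gene, and symbols, exon lengths and coordinates (counted from 1, GRCm38) came from GENCODE M21.

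Counts were tested with edgeR 4.0.16 in R 4.3.3 (TMM, filterByExpr with a minimum count of 10, quasi-likelihood F-test with robust=TRUE, group alone), two-sided, with Benjamini-Hochberg adjustment over 15191 genes and a threshold of 0.05. SE is the log2 difference divided by the square root of F. CPM are TMM-scaled. Intervals of 95% for shares are exact binomial. Lists are described by counts and medians, without a set test. The procedure was tested on simulated counts. Libraries of a group differed by 14.7 to 27.0 times the variance of sampling (chi-square per degree of freedom) and were each used as 1 replicate. Since the labels do not tie each library to its own mouse, the p-values reflect variation among libraries, which may be partly technical.

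The 10 genes and the lists were chosen with earlier results of these data known. The rule for naming took all 10 genes, from each list the genes that passed (at most 5 by p) or otherwise the 2 with the smallest p, the 6 genes most alike over the libraries (1 of them is not reported here), and Cd274. Alternatives were other scalings, filters and tools (DESeq2 1.42.0, voom of limma 3.58.1), robust=FALSE, a replicate block, each library left out, another minimum level for alike genes, and another gene length. Siglec5 of the alveolar macrophage list had no row.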

Additional observations from a re-analysis of the deposited data

How the results depend on the processing

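None of the 10 genes was called under any of the 16 alternatives, and all the log2 differences of Sftpb, Sftpd, Abca3, Lamp3, Napsa, Lpcat1 and Etv5 kept their sign. That of Sftpa1 was -0.0022 with RLE factors and with DESeq2. With 1 library left out, Sftpc ran from -0.13 to 0.044, Sftpa1 from -0.041 to 0.048 and Slc34a2 from -0.33 to 0.0065, and the median of the 10 from -0.19 (without KO replicate 1) to -0.0086 (without KO replicate 3). Over all genes, 578 were higher and 225 lower without a filter on low counts, and 367 and 231 by DESeq2, where the cause was not tested. With 1 library left out, 22 to 404 genes were higher and 2 to 174 lower in KO, fewest without WT replicate 2 and most without KO replicate 1. With the replicate number as a block, 309 were higher and 96 lower. The labels pair no samples, and deviations of same-numbered libraries correlated at 0.050, 0.023 and 0.029, so equal numbers were not taken as pairs. KO replicates 1 and 3 correlated best with their own numbers, KO replicate 2 with WT replicate 3. For KO replicate 3 the margin was small, at 0.0295 with WT replicate 3 and 0.0292 with WT replicate 1. With the longest transcript as the length, levels per kilobase were 9867 for Sftpc, 1021 for Sftpb, 259.9 for Sftpd, 139.8 for Slc34a2, 70.1 for Lpcat1, 91.2 for Napsa and 47.5 for Abca3, because the length is shorter. The 6 most alike genes were the same at a mean log2 CPM of at least 2.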

Other observations

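Sftpa1 and Sftpd lie 35761 bases apart on opposite strands, and their r over the 6 libraries was -0.054. Sftpc and the type 2 marker Lgi3 lie 6603 bases apart, also on opposite strands. Lgi3 was lower in KO replicates 2 and 3 (105 and 86.0 CPM) than in each WT library (136 to 166 CPM), where Sftpc had 7209 and 7132 CPM against 7295 to 8184 CPM. In KO replicate 1, Lgi3 had 140.1 CPM, within the WT range, and Sftpc had 9009.7 CPM, above every WT library. The groups therefore overlapped for both genes.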
